A study of Homo sapiens with 8 samples.

Results

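A set of 5 genes best known from nerve cells were examined for start sites of transcription that were used in one growth state of a fibroblast and little or not at all in the other. They were NALF1, CACNA1C, SYT1, RIMS2 and ADCY8, and they were chosen from the deposited lists of such sites, so the presence of sites in them is not a finding. The members were the sites selected by position, with the middle of the site inside the gene or within 1 kb upstream, and the deposited folds between the states had selected the sites of the lists. In all, 24 of 1249 listed sites were members, 18 of the 849 in the senescent-only list and 6 of the 400 in the proliferating-only list.

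The cells were IMR90, a line of human lung fibroblasts, either dividing or brought to replicative senescence by serial passage, and the labels name no transgene or drug in either group. The assay behind the lists is PRO-cap, in which RNA polymerases run on in permeabilised cells, labelled nascent RNA is purified, and ligation to decapped 5′ ends makes each read begin where a transcript began. The labels give 3 PRO-cap libraries of dividing cells, 1 taken after 23 population doublings and 2 after 26, and 3 of senescent cells, 1 after 76 doublings and 2 after 67. There was also 1 PRO-seq library per state, at population doubling 20 and 76, which was not analysed here. The lists give 1 fold per site and no value per library, so the spread between cultures is unknown and no difference between the states could be tested. The labels do not state which PRO-cap libraries entered each list. Each fold was resolved into whole reads in its own and in the other state, as 1 pair of read counts per site fitted every fold (849 of 849 and 400 of 400). The reads are thus inferred from the folds. A fold is the scaled reads of one state plus 1, over the scaled reads of the other plus 1, with 32.8 scaled units per read in senescent and 39.4 in proliferating cells. A level ratio below is the ratio of scaled reads without the added 1. Where the other state has no read, the fold therefore only restates the reads of the own state, and a bound that puts 3 reads in the other state ("at least") is given as well. That bound takes the own reads as counted, so the lower limit of the exact 95% interval, which allows for error in both counts, is smaller and stands beside it. Every site was listed for a fold above 10, and the ratios, bounds and intervals do not allow for that selection. They describe the listed sites and are not evidence of a difference between the states.

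The labelled cell type could not be checked from levels of its markers, because the lists hold sites and not expression. A site lay in 1 of 12 fibroblast marker genes (PDGFRA, senescent-only, fold 329), in 0 of 12 neuronal marker genes and in 0 of the 9 annotated epithelial, endothelial and blood marker genes. Of all protein-coding genes 3.06% held a site of either list, so counts this small do not bear on the cell type.

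The genes have separate roles in electrical activity, in transmitter release or in calcium-dependent signalling. NALF1 encodes an accessory subunit of the NALCN channel, whose sodium leak sets the resting potential of neurons. CACNA1C encodes the pore of the L-type calcium channel CaV1.2, which also carries calcium in heart and smooth muscle. RIMS2 encodes a scaffold of the presynaptic active zone that ties vesicles to calcium channels. SYT1 encodes the calcium sensor of synaptic vesicles that triggers fusion, and ADCY8 a calcium-stimulated adenylyl cyclase that makes cAMP. Start sites inside genes can belong to alternative promoters or to enhancers, where transcription commonly begins on both strands from a pair of diverging starts.

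The sequences below show where transcription began at member sites on chromosomes 12 and 13: the proliferating-only sites with the highest fold in SYT1 and CACNA1C, the senescent-only sites with the highest fold in CACNA1C and NALF1, the NALF1 sites with an AP-1 motif, and the starts that form a close pair facing away from each other in SYT1, CACNA1C and NALF1. Each runs from 40 bases before to 20 bases after the start base, taken as the middle base of the 150-base site, from the GRCh37 assembly. Capitals mark the last base before the start and the start base itself.
SYT1 proliferating-only, fold 10631, chr12:79803382-79803442, - strand: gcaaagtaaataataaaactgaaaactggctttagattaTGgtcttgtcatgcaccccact
SYT1 proliferating-only, fold 209, chr12:79803568-79803628, + strand: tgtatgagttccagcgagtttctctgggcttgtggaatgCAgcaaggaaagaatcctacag
CACNA1C proliferating-only, fold 158, chr12:2394144-2394204, + strand: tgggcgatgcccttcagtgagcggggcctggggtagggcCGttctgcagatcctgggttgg
CACNA1C proliferating-only, fold 25.6, chr12:2394076-2394136, - strand: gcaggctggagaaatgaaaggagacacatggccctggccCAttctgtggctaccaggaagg
CACNA1C senescent-only, fold 11.9, chr12:2082329-2082389, - strand: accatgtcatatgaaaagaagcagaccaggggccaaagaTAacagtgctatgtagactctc
NALF1 senescent-only, fold 1215, chr13:107910725-107910785, + strand: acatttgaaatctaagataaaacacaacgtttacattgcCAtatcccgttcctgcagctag
NALF1 senescent-only, fold 920, chr13:107863671-107863731, + strand: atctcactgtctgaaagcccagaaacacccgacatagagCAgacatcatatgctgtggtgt
NALF1 senescent-only, fold 35.0, chr13:107903845-107903905, + strand: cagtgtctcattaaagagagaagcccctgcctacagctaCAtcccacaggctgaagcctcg
NALF1 senescent-only, fold 887, chr13:107838393-107838453, - strand: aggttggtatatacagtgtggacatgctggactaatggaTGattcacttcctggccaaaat
NALF1 senescent-only, fold 264, chr13:107838452-107838512, + strand: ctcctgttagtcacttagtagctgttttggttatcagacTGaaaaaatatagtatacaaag

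In each of these sequences the capitals are a pyrimidine followed by a purine, the step at which RNA polymerase II usually starts, because each is printed on the strand where its middle base ends such a step. The files give + as the strand of every site, so the strand was read from this step: a step ending at the middle base can lie on the + or on the - strand, never on both. A step was present at 22 of 24 member sites (91.7%) and at 1076 of all 1249 sites (86.1%). At positions 10 to 60 bases away from the middle it was present at a median of 43.3% of all sites (range 39.6% to 47.1%), and at 3 to 17 of the 24 members. The middle base of a listed site was thus set apart from its surroundings in the members as in the lists at large. As a check on the strand, 9 listed sites lay within 10 bases of an annotated transcript start; 8 had a step, and in 7 it was on the strand of the transcript (87.5%, Wilson 95% interval 52.9% to 97.8%). A strand given below is this reading, and a single site can be misread.

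**Figure D1:**
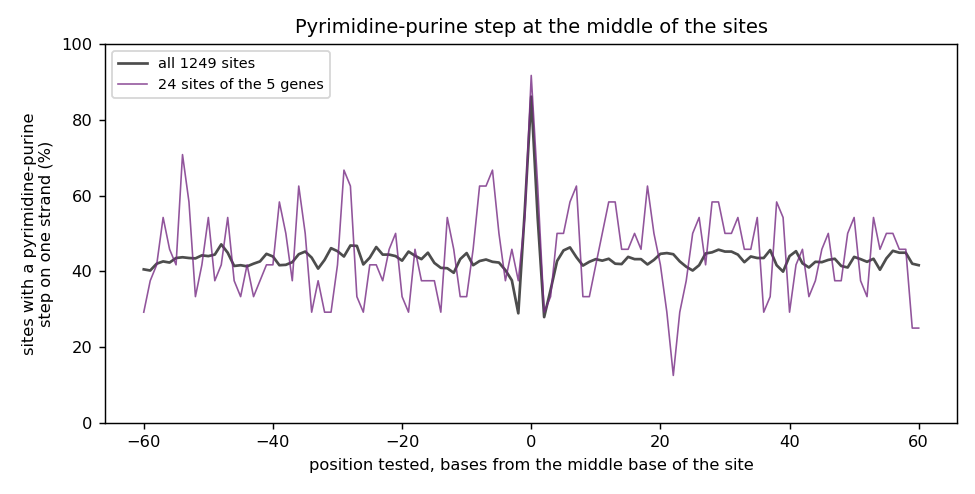
Share of sites with a pyrimidine-purine step on either strand, by distance in bases from the middle base of the site, for all 1249 listed sites (grey) and the 24 members (purple). Both lines peak at the middle base, at 86.1% and 91.7%; the purple line is ragged elsewhere because it rests on 24 sites.

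NALF1 held the most member sites, 11 senescent-only and 0 proliferating-only. It (ENSG00000204442) is a gene of 704.0 kb on the - strand of chromosome 13 (107815858 to 108519844) with 2 introns in its canonical transcript. Their start bases spread over 188.1 kb and made 10 regions when joined within 500 bases and 6 when joined within 10 kb. All 11 were intronic, 9 in intron 1, which is 654.9 kb long, and 2 in intron 2, which is 39.8 kb long. They lay between 70.1% and 96.8% of the way along the gene, 493 to 681 kb from its 5′ end. The nearest annotated start of any transcript was at least 28081 bases away, so the sites matched no annotated alternative promoter.

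The NALF1 sites were of low depth. From the 3′ end of the gene to its 5′ end they had 27, 8, 28, 43, 37, 12, 8, 13, 16, 32 and 10 reads in senescent cells. In proliferating cells 9 of the 11 had 0 reads and the sites with 43 and 32 had 1 each. The highest fold, 1215, belonged to the site with 37 and 0 reads, a level at least 10.3-fold higher in senescent cells (exact lower limit 7.95). Whether more cells used a start or each cell made more RNA from it cannot be told apart in bulk libraries, and every ratio assumes that the scaling brings both states to one total. The site with 43 and 1 reads had a level ratio of 35.8, with an exact 95% interval of 6.1 to 1448 that covers counting error only. At the shallowest sites, with 8 reads against 0, the bound was at least 2.22-fold and the exact lower limit 1.42. At the sites with 8, 10 or 12 reads the 0 was fixed by the list. There, 1 read in proliferating cells would have put the fold below 10. The 11 sites summed to 234 reads, less than the 258 of the 2 sites of RIMS2. A sum can count a read more than once where sites overlap.

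On strand, the NALF1 sites were mixed. The step lay on the coding strand at 5 sites, on the opposite strand at 5 and on neither at 1. The 2 sites nearest the 3′ end overlapped by 71 bases, and their start bases were 79 bases apart. The left one, with 27 reads, read on the - strand and the right one, with 8, on the + strand, so that the starts faced away from each other. Another 2 sites, with 8 and 13 reads, were 827 bases apart and also faced away from each other. The other sites of the gene stood 2400 bases or more from the next.

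AP-1, the FOS and JUN dimer, binds TGACTCA or TGAGTCA, which are reverse complements of each other. Either form lay in the central 200 bases of 3 of the 11 NALF1 sites (27.3%), and of 18.4% of all senescent-only sites. In the same windows TATAAA, the TATA box, also lay at 3 NALF1 sites (12.4% of the list). The TEAD motif GGAATG lay at 1 (17.8% of the list). The AP-1 matches are shown here with the motif in capitals and 12 bases on each side.
NALF1 site of fold 920, chr13:107863635-107863665, + strand: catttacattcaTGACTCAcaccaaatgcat
NALF1 site of fold 35.0, chr13:107903828-107903858, + strand: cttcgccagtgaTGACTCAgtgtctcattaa
NALF1 site of fold 1215, chr13:107910791-107910821, + strand: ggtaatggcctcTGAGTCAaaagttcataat
The motif centres were 61 and 42 bases to the left of the start base in the first 2 sites and 41 bases to its right in the last. All 3 steps read on the + strand, against the gene, so the motif was upstream of the start at the first 2 and downstream at the other. They were 3 of the 4 NALF1 sites with the most reads (28, 43 and 37).

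**Figure D2:**
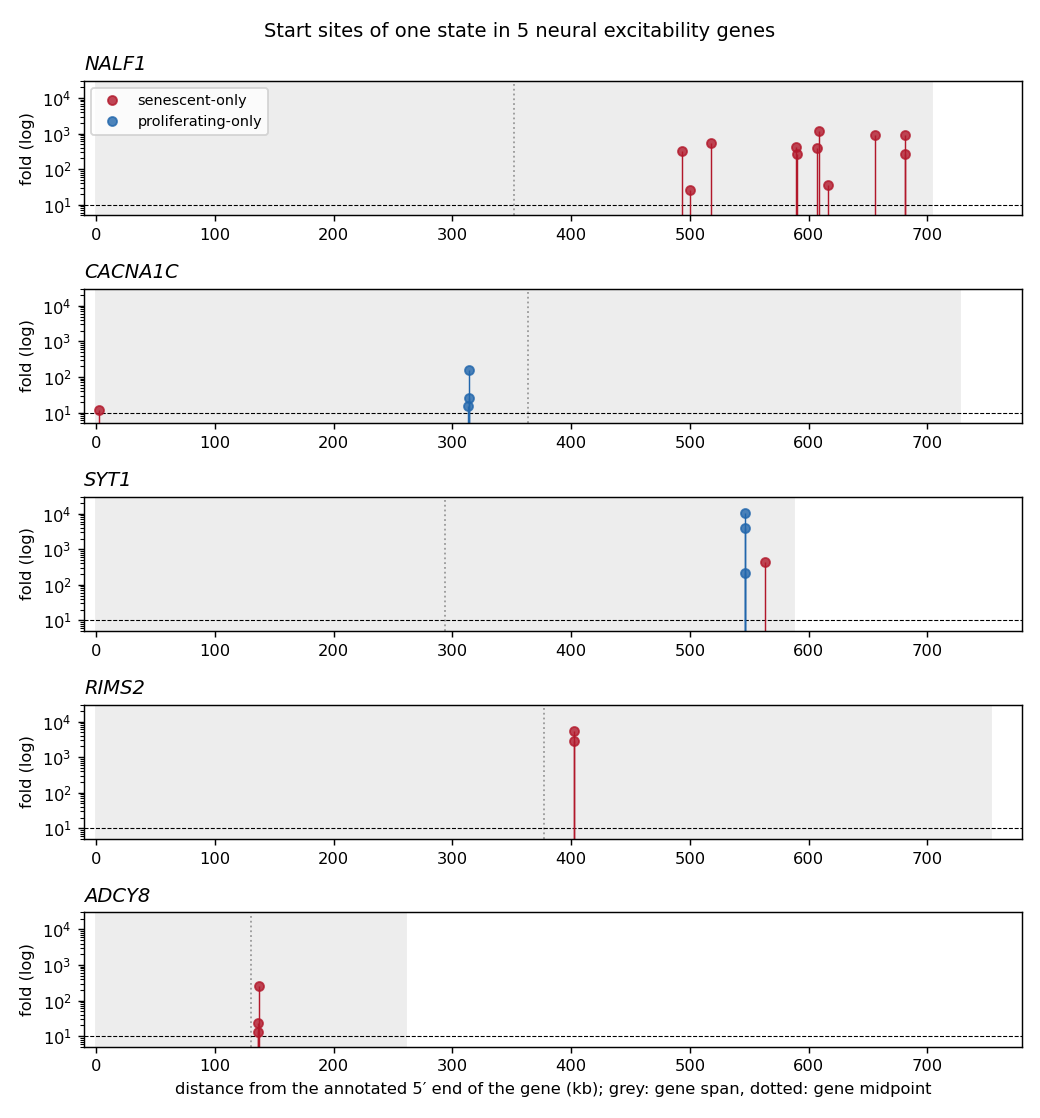
Member sites along each gene, drawn from its annotated 5′ end (kb), with the deposited fold on a log axis; red marks senescent-only and blue proliferating-only sites, and the dashed line a fold of 10. NALF1 sites lie far apart in the last part of the gene, while the start bases of each list in any other gene fall within 1.4 kb.

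In CACNA1C the lists marked places far apart. The gene (ENSG00000151067) spans 2079938 to 2807116 of chromosome 12 on the + strand (727.2 kb) and held 3 proliferating-only sites and 1 senescent-only site, at least 311 kb from one another. The proliferating-only sites lay in intron 3 of the canonical transcript, which is 328.5 kb long, at 43.1% to 43.2% of gene length, and inside CACNA1C-IT3, an annotated noncoding transcript of the same strand whose start was 14374 bases or more away. They had 38, 86 and 4 reads in proliferating and 3, 4 and 0 in senescent cells. The level ratios of the first 2 were 15.2 (exact 95% interval 4.82 to 77.0) and 25.8 (9.72 to 96.8), while the last, with the highest fold of the gene (158), had 4 reads against 0, for which the exact lower limit was 0.792, below equal levels. The highest fold of the gene thus rests on the fewest reads.

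Of the 3 CACNA1C proliferating-only sites, the sites with 86 and 4 reads overlapped by 62 bases, with start bases 88 bases apart that faced away from each other, the deeper start on the - strand. The site with 38 reads was 780 bases to the left, also on the - strand. These sites were the richest in G and C of all members (56.5%, 55.5% and 63.0% of the central 200 bases), against a median of 42.2% over the 24.

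The senescent-only site of CACNA1C, at 2082275 to 2082424, drew 72 reads from senescent cells and 5 from proliferating cells, a level ratio of 12 (exact 95% interval 4.91 to 38.1). It was the member nearest to a gene start, 2.41 kb inside the longest CACNA1C model but 79.8 kb upstream of the start of the canonical transcript. It also lay in DCP1B, a gene for a decapping cofactor on the - strand, at 53.6% of that gene's length, and its step read on the strand of DCP1B. Which of the genes the start belongs to was not tested. Its fold of 11.9 was the lowest of all members. The lowest member folds after it were 13 in ADCY8 and 15.1 in CACNA1C, and the lowest folds of the whole lists were 10.2 and 10.04, so nothing below 10 could be seen.

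SYT1 held the deepest member sites, and these were of proliferating cells. The gene (ENSG00000067715) spans 79257773 to 79845788 of chromosome 12 on the + strand (588.0 kb). Its 3 proliferating-only sites lay within 79803328 to 79803903, at 92.8% to 92.9% of gene length in intron 9 of 10. Proliferating cells gave them 270, 527 and 102 reads, and senescent cells 0, 3 and 0. The site with 527 reads had the most of any in the proliferating-only list, and its level ratio was 211 (exact 95% interval 71.7 to 1025). The sites with 270 and 102 reads were at least 108-fold and at least 40.8-fold higher in proliferating cells (exact lower limits 87.2 and 32.6). Their folds, 10631 and 4017, lay above the fold of 209 of the deepest site, which had 3 reads in the other state where they had 0.

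The first 2 of these SYT1 starts were 206 bases apart and faced away from each other, with 270 reads on the - strand and 527 on the + strand, and the last was 220 bases further on the + strand. The lone senescent-only site of SYT1 (fold 428) lay 16.9 kb or more downstream in the same intron, which is 90.5 kb long. It had 13 reads against 0, at least 3.61-fold higher in senescent cells (exact lower limit 2.54). The 4 sites also lay in an annotated noncoding gene of the - strand, ENSG00000257894. The proliferating-only sites had no AP-1 motif. A TEAD motif (GGAATG on either strand), bound by partners of YAP, lay near 2 of them, as at 18.8% of all proliferating-only sites, its centre 5 bases before the start base of the deepest site.

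RIMS2 (ENSG00000176406) and ADCY8 (ENSG00000155897) lie on chromosome 8, at 104512838 to 105266658 on the + strand (753.8 kb) and at 131792547 to 132053155 on the - strand (260.6 kb), and no sequence is shown for them. RIMS2 held 2 senescent-only sites, at 104914486 to 104914635 and 104914616 to 104914765, in intron 7 of 29, at 53.3% of gene length and 9670 bases or more from an annotated start. Senescent cells gave them 169 and 89 reads and proliferating cells 0. These were the deepest senescent-only members, at least 47.0-fold and at least 24.7-fold higher in senescent cells (exact lower limits 37.8 and 19.7), with folds of 5546 and 2921. The sites overlapped by 20 bases, their starts were 130 bases apart, the deeper on the - strand, and they faced away from each other. A single AP-1 motif, centred 85 bases to the right of the left start base and 45 bases to the left of the right one, and so between them, lay within the windows of both.

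ADCY8 held 3 senescent-only sites between 131916067 and 131917639, with start bases within 1.4 kb, at 52.0% to 52.6% of gene length. The site with the highest fold (264) lay in exon 7, the only exonic member, with 8 senescent reads against 0, at least 2.22-fold higher (exact lower limit 1.42). It had no step at its middle base. The other 2 lay in intron 6, with 29 and 16 reads against 1 each, and level ratios of 24.2 (exact 95% interval 4.01 to 987) and 13.3 (2.07 to 559). They were 412 bases apart and their starts faced each other. Nothing in ADCY8 rested on more than 29 reads.

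**Figure D3:**
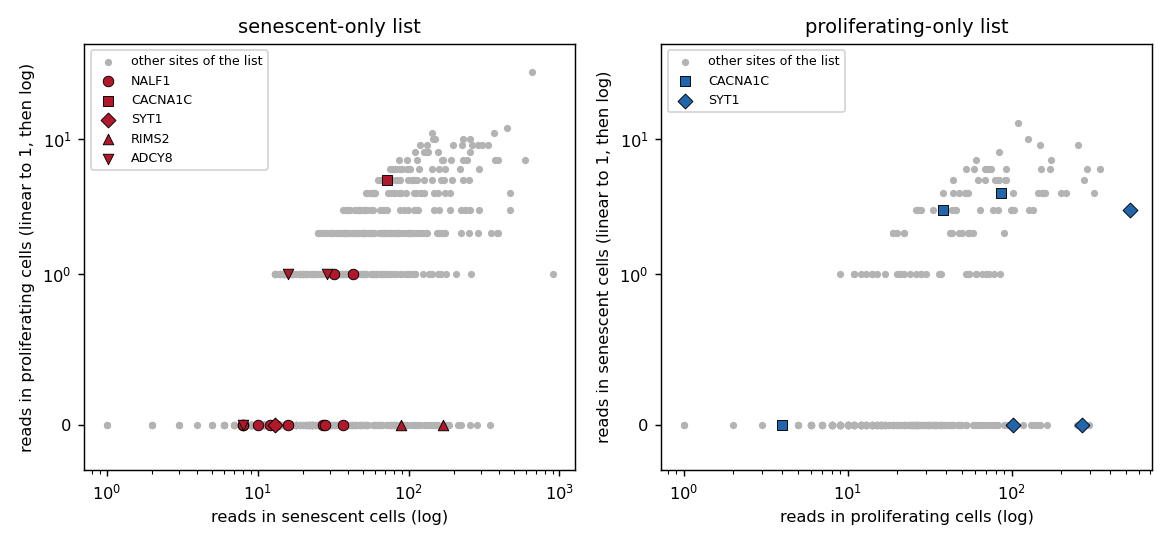
Reads of each site in its own state (log axis) and in the other state (linear to 1, then log), for the senescent-only list (left) and the proliferating-only list (right); coloured symbols are members and grey points the other sites. SYT1 holds the point farthest right in its list (527 reads), RIMS2 stands at 89 and 169 reads with 0 in the other state, and most NALF1 sites have under 30 reads.

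Most of the closest neighbours among the members faced away from each other. Of the 5 pairs of adjacent member sites with start bases at most 300 bases apart, 4 faced away from each other, at a median of 109 bases: the pairs in NALF1, CACNA1C, SYT1 and RIMS2. The fifth pair, in SYT1, shared a strand. In the lists as a whole, 150 of the 196 such pairs with both strands read faced away (76.5%), at a median of 152 bases, 36 faced each other and 10 shared a strand. Beyond 300 and up to 1000 bases the shares were 13.8%, 44.7% and 41.5% of 94 pairs, and the 3 member pairs in that range had 1 of each kind. How the sites were called, and whether starts closer together on one strand could be listed, was not given in the labels. Relative to the genes, 11 member steps were on the coding strand and 11 on the opposite strand. Over all listed sites with a step that were members or lay inside a single coding gene, 473 of 937 were on the coding strand (50.5%).

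The members were then set beside the lists, as a description only. Reads of the other state were at 0 in 13 of the 18 senescent-only members, 9 of them in NALF1, where the share over the whole list was 55.4%; they were at 0 in 3 of the 6 proliferating-only members, where the share over the list was 73.0%. The other members had 1 to 5 reads of the other state. At the shallowest sites of either list a 0 was fixed in advance, as 1 read of the other state would have put the fold below 10. These shares therefore depend on depth. The median senescent-only member had 21.5 reads in its own state, against 32 over the list, and the median proliferating-only member 94, against 24. By gene the medians differed. For senescent-only sites they ran from 13 in SYT1 through 16 in NALF1 to 129 in RIMS2. For proliferating-only sites they were 38 in CACNA1C and 270 in SYT1, so 94 describes neither gene. None of the 24 lay within 1 kb of an annotated transcript start (0), where 8.72% of senescent-only and 16.8% of proliferating-only sites did, and 23 were intronic (17 senescent-only and 6 proliferating-only), as were 82.9% and 72% of the lists. Another site of the same list stood within 10 kb of 20 members (83.3%), as of 62.9% of all sites. Past the midpoint of the gene lay 17 of the 18 senescent-only members, as did 687 of the 745 senescent-only sites with a position in one host gene (92.2%). So did 3 of the 6 proliferating-only members and 312 of 347 such proliferating-only sites (89.9%); the 4 exceptions were all the sites of CACNA1C. An AP-1 motif lay at 5 senescent-only members (27.8%, Wilson 95% interval 12.5% to 50.9%), as at 18.4% of the list. The 2 RIMS2 sites among these 5 share a single motif. The interval takes sites as independent, which overlapping sites are not. The motif lay at 0 of 6 proliferating-only members and at 10% of that list. No member had a cAMP response element (TGACGTCA), the half-site TTCAGCACC of the silencer element RE1, or TATAAA starting 34 to 23 bases before its start base on the strand of its step (0 of 24, 0 of 24 and 0 of 22); over all sites these were at 0.641%, 0.24% and 2.23%.

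Length was a feature the genes shared. They span 260.6 to 753.8 kb, which puts them between percentiles 94.9 and 99.3 of protein-coding genes. A senescent-only site lay in 2.04% of the 20090 protein-coding genes, a proliferating-only site in 1.1% and sites of both lists in 0.0796%, and among the 1498 genes of at least 200 kb the shares were 12.8%, 4.61% and 0.868%. The 5 genes were chosen for holding sites, so their counts of 5, 2 and 2 are not read against these shares. Per megabase of gene, NALF1 held 15.6 and ADCY8 11.5 senescent-only sites, RIMS2 2.65, SYT1 1.7 and CACNA1C 1.38. For proliferating-only sites the values were 5.1 in SYT1 and 4.13 in CACNA1C. The 3 sites of ADCY8 made 1 region when joined within 10 kb. Over all protein-coding genes the values were 0.604 senescent-only and 0.275 proliferating-only sites per megabase, and 0.733 and 0.198 in genes of at least 200 kb. As the 5 genes were chosen for holding sites, their higher values are not a result. Outside the genes the next listed site was 167 kb away from SYT1, 331 kb from CACNA1C and 1278 kb from NALF1, and 6418 and 11691 kb from RIMS2 and ADCY8.

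**Figure D4:**
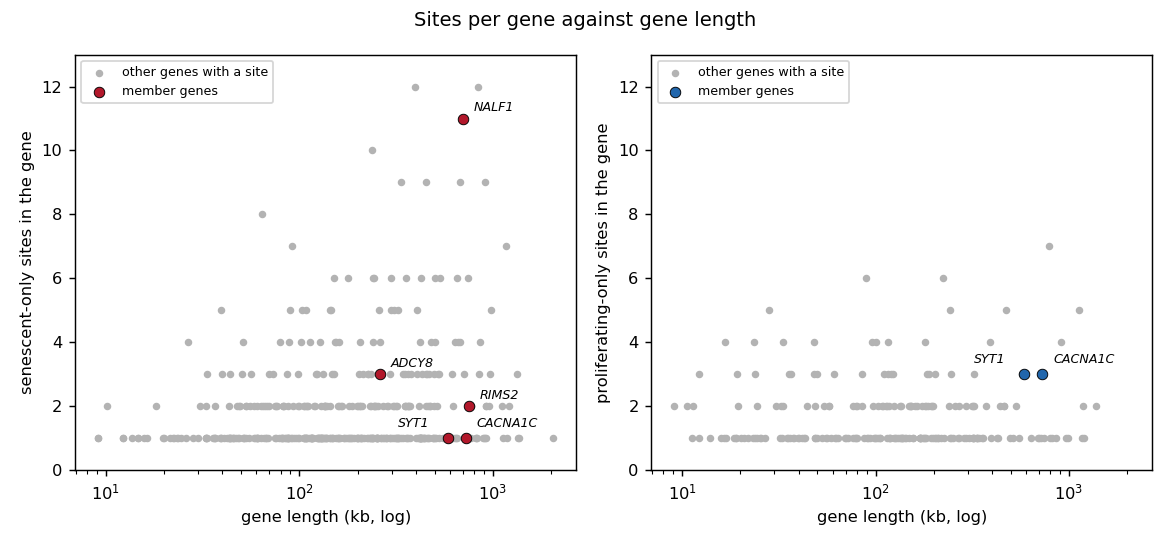
Sites per gene against gene length (kb, log axis) for genes with at least 1 senescent-only (left) or proliferating-only (right) site; coloured points are the 5 genes and grey points other genes. NALF1, with 11 sites, is 1 of 3 genes with at least 11 senescent-only sites, while the other 4 have 1 to 3, as do most of the grey points.

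Partners and paralogs of the 5 genes were looked up from fixed lists. Of 108 such genes, 8 held a site (7.41%), against 614 of all protein-coding genes (3.06%); of the 36 with at least 200 kb, 3 did (8.33%), against 16.6% of all genes of that length. None of the other 4 genes of the sodium leak channel complex held one (0), nor did any of the 15 other synaptotagmins or the 9 voltage-gated sodium channel genes. Among 17 other calcium channel subunits, CACNA2D1, which encodes an auxiliary α2δ subunit, held 1 senescent-only site (fold 723, 22 reads against 0).

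Of 40 genes of the active zone and of vesicle fusion, 3 held senescent-only and 2 held proliferating-only sites. Among the senescent-only sites were those in ERC1, an active zone scaffold (fold 756, 23 reads against 0), and in NAPB, which helps take SNARE complexes apart (296, 9 against 0). The proliferating-only sites lay in the synapsin genes SYN1 (4 sites, folds 11.7 to 631) and SYN2 (13.1 and 15.0). A SYN1 site with 16 reads against 0 was 2 bases from an annotated SYN1 start, closer than any member was to one.

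Among 23 genes of cAMP signalling, PDE1C, a calcium-activated phosphodiesterase that breaks down cyclic nucleotides, held 4 senescent-only sites. Their reads in senescent cells were 16, 4, 50 and 78, against 0, 0, 0 and 5 in proliferating cells. RAPGEF3, the cAMP sensor EPAC1, held 3 proliferating-only sites with 26, 43 and 37 reads, against 0, 3 and 0 in senescent cells.

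Genes with the pattern most like each member were found by the summed difference in the number of sites of the 2 lists, with ties broken by the highest fold. CACNA1C and SYT1, with 1 senescent-only and 3 proliferating-only sites each, were the only genes with these counts. Their highest folds were 158 and 10631. For NALF1 the nearest were ANTXR1 (10 sites), GTDC1 and PTPRM (12 each), all senescent-only. RIMS2 shared its count of 2 senescent-only sites with 88 genes, of which PCDH9 (highest fold 4431), MAPKAP1 (7285) and ETS1 (3676) were nearest, and ADCY8 shared its 3 with 37, of which STAT4 (231), NCOA7 (329) and LSAMP (198) were nearest. The likeness covers counts over 2 states only.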

How the data were processed

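PRO-cap libraries of IMR90 cells were made per the labels' protocols. Per the submitters' processing notes, the tools were cutadapt 2.10, BWA 0.7.10, HOMER, SAMtools 1.1 and bedtools 2.27.1-65, in unstated roles, and hg19 is among the builds. The deposited value of each 150-base site is a fold, a ratio the authors computed; how sites were called, pooled and thresholded is not stated there. Each list was also deposited, with identical content, for 1 sample. For the proliferating-only list this was the PRO-cap library of 23 doublings, and for the senescent-only list that of 76. Whether the other PRO-cap libraries entered the lists is not stated.

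Folds were resolved into whole reads (tolerance 1e-06 of a read), which recovered 800 of 800 simulated folds. If both states were scaled to one total, level ratios are per total; overlapping sites may share reads. Coordinates are 1-based on hg19, set against GRCh37 and GENCODE 44 lifted to it (protein-coding genes for host genes; any transcript for starts). Classes were assigned in the order promoter, exon, intron. Python 3.11.15, scipy 1.17.1 and pysam 0.24.0 were used. Intervals are exact or Wilson at 95% and cover counting error only, not the choice of sites by fold. PCR reads without molecular identifiers are not independent molecules. The members and lists were chosen with earlier results of these data known. Named are the 5 genes with their sites, listed partner genes with a site (1 gene and 1 sequence are not reported here), and the 3 genes most alike to each member. Alternatives changed the overlap rule, joining, fold, read and distance minimums, annotation and sequence window.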

Additional observations from a re-analysis of the deposited data

How the results depend on the processing

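Of 54 alternative values, 42 were classed as the same as the reported value and 12 as moved. The first class was wide and does not mean that a value stayed close. It held, for example, 13 senescent-only member sites in place of 18 when a fold of at least 100 was required. Overlap rules (gene span only, any overlap, whole site inside) changed no count of member sites. Joining sites of a list within 10 kb left 10 senescent-only and 2 proliferating-only regions, and joining within 500 bases left 3 proliferating-only regions. Requiring no read in the other state left 3 proliferating-only sites. NALF1, left out after the data were examined, carried much of the whole. Without it 7 senescent-only and 6 proliferating-only sites remained, so every count can only fall or stay. Of these sites 12 were intronic, 9 past the gene midpoint and 2 with an AP-1 motif, the RIMS2 sites that share it. No read in the other state was found at 7, and another site within 10 kb at 11. The median position without NALF1 was 52.6% of gene length in place of 78.7%, a change that was still classed as the same. The count of 11 steps on the coding strand fell to 3 with the C-A step alone and to 6 without NALF1. No site came within 1 kb of an annotated start when sites were joined within 500 bases (0). The other alternatives for this count kept fewer sites, fewer starts or a shorter distance, so they could only give 0. No paired analysis was possible because each site carries 1 fold without sample values, and for the same reason no replicate could be left out. Most senescent-only members rest on under 30 reads, and for 8 reads against 0 the exact lower limit of the ratio is 1.42.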
